A study of Mus musculus with 2 samples.

Results

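The genes described here are 10 genes of myoblast fusion and muscle membrane repair, namely Mymk, Jam2, Jam3, Cdon, Boc, Dock1, Dysf, Myof, Cav3 and Bin1, read by 22 of the 45101 probe sets of an Affymetrix mouse expression array. A probe set, the group of short probes that reads 1 transcript region, was taken when its only gene symbol in the platform annotation was 1 of these 10, and no probe set with several symbols named any of them. The study compared differentiated C2C12 cells, a mouse myoblast line that fuses into multinucleated myotubes when serum is lowered. Cells with the shLrrfip1a hairpin, directed at Lrrfip1, were set against C2C12 cells with a control hairpin (spelled shLCUI in the sample labels). Both were kept for 5 days in medium with 2% horse serum before total RNA was taken, and both carried a hairpin. Each group was 1 array. No difference below has a replicate check, no p-value or spread between cultures can be given, and whether the cells were a clone or a pool is not given in the sources used here.

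Skeletal muscle fibres form when myoblasts exit the cell cycle, adhere to one another and merge their membranes. Cell surface receptors bring the cells together, actin is remodelled at the contact through Rac, and the muscle-specific membrane proteins myomaker and myomixer drive the merging itself. The fibre surface is then shaped into caveolae and T-tubules, and tears in it are closed by calcium-triggered fusion of vesicles, in which dysferlin takes part.

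Values are the intensities deposited by the authors, given for the shLrrfip1a array and then for the control array, and a difference is log2(intensity + 16) of shLrrfip1a minus that of control. A gene is represented by its brightest probe set, and it counts as measured when the mean of both arrays lies above the median of all probe sets that are not Affymetrix controls (an intensity of 52.7). All 10 genes were measured, among 11445 genes in all. Of their 22 probe sets 16 lay above that level. Intensities of different probe sets depend on the probes and are not compared with one another.

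The hairpin's target, Lrrfip1, read lower throughout its 3 probe sets, at 375, 292 and 108 in shLrrfip1a against 531, 469 and 160 in control. The mean difference was -0.55 ± 0.09 (SD, n = 3 probe sets that share 1 RNA sample). The median intensities lay close together, at 53.5 in shLrrfip1a and 51.3 in control. All 7 markers of differentiated skeletal muscle were measured and none differed by 1.5-fold. Their differences ranged from -0.38 for Myog (2005 in shLrrfip1a against 2612 in control) to 0.38 for Ckm (422 against 321). The summed intensity of the 7 was 15219 in shLrrfip1a and 16685 in control, of which Acta1 gave 5220 and 5586. Sums of this kind, here and below, are weighted to the brightest probe sets and do not weigh the markers equally.

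Of the 10 genes, 4 were lower and 6 higher in shLrrfip1a, with a median difference of 0.05 and a range of -0.62 to 0.43. That median was -0.10 over the 7 genes left by a filter at the 75th percentile and 0.20 with spike-in scaling, so it has no settled direction. The same median over all 11445 genes was 0.00, and 49.3% of all genes were lower. The absolute difference had a median of 0.25 over the 10 genes and 0.16 over all genes. Cdon, at -0.62, was the 1 member at least 1.5-fold different, against 4.89% of all genes in either direction, 2.49% lower and 2.40% higher. Over all genes these are 275 higher and 285 lower, which became 605 and 187 with spike-in scaling. No member reached 2-fold, against 1.38% of all genes. With 10 genes these counts rest on 1 gene and show no excess or deficit for the set. The plot of intensities shows both arrays for each of the 22 probe sets.

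**Figure D1:**
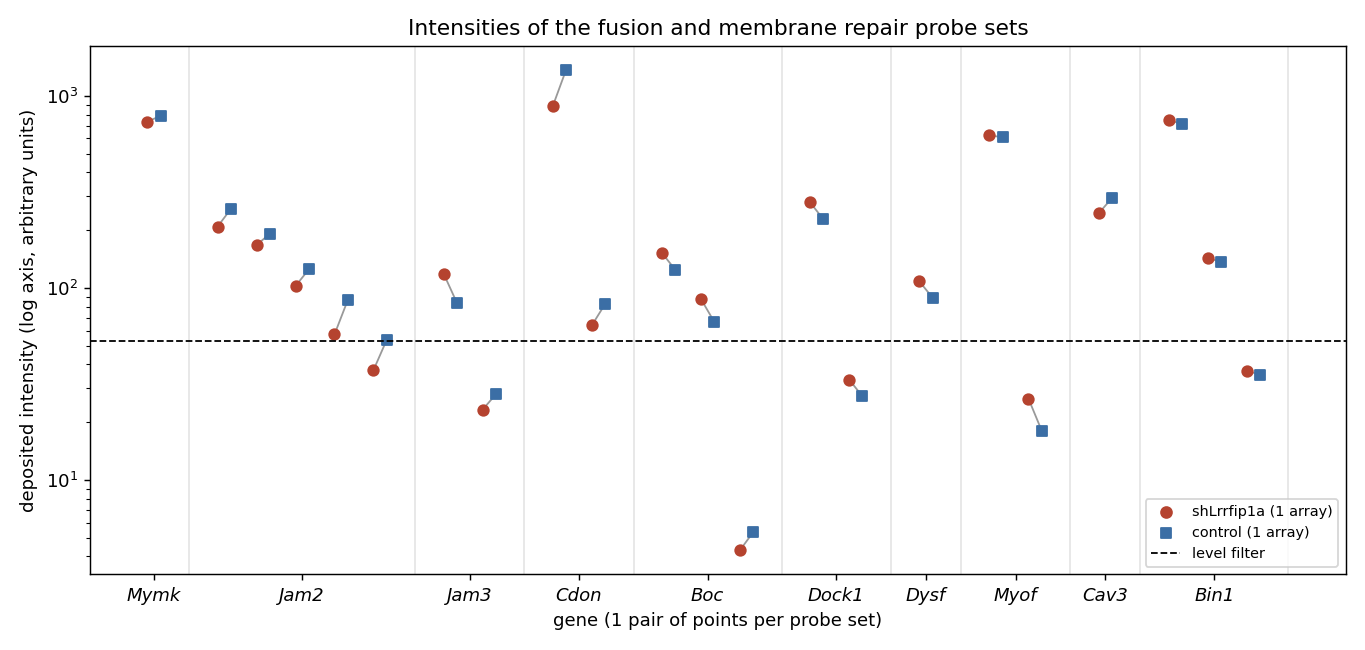
Deposited intensity (log axis, arbitrary units) of each of the 22 probe sets of the 10 genes, with the shLrrfip1a array as red circles on the left and the control array as blue squares on the right of each pair, 1 array per group. The dashed line is the level filter of 52.7. All 5 Jam2 pairs and both Cdon pairs slope upward to the control, while the brighter Jam3, Boc and Dock1 pairs slope downward.

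Sequence at annotated start sites was available for 5 of the 10 genes, as 6 windows of 300 bases (250 before the start and 50 from it) from RefSeq, build GRCm38.p6. It is shown for 3 genes that differ in direction: Cdon, the lowest, Dock1, a higher gene, and Cav3, a lower gene that is specific to muscle. Capitals mark E-boxes (CANNTG, a palindrome bound by MyoD and other factors) in the Cdon and Cav3 windows and GC boxes (GGGCGG on either strand) in the Dock1 window.
Cdon, chr9:35451826-35452125, plus strand: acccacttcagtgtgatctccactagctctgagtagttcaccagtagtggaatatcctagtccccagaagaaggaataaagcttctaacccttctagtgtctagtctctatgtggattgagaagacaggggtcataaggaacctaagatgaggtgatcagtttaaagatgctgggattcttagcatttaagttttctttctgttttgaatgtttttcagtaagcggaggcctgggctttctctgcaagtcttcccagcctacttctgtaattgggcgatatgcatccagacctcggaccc
Dock1, chr7:134670437-134670736, plus strand: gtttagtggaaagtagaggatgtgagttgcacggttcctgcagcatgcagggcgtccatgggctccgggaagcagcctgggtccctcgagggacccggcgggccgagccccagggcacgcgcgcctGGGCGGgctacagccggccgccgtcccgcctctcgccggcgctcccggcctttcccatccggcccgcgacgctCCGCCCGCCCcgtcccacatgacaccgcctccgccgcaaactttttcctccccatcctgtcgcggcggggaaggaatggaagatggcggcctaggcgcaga
Cav3, chr6:112459255-112459554, plus strand: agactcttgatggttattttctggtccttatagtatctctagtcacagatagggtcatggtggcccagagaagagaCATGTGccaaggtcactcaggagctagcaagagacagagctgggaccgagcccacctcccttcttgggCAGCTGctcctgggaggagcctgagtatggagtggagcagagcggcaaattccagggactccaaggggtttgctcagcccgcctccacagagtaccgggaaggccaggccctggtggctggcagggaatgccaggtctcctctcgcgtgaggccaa

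The Cdon window held no E-box and no GC box, and 44.7% of its bases were G or C. It belongs to an internal start, 30548 bases into the annotated gene, and thus not to the outermost start of Cdon. The Dock1 window was 70.7% G or C, with 8.16% of windows higher, and held 3 GC boxes, of which 2 overlap, and 1 E-box. The Cav3 window held 2 E-boxes, CATGTG and CAGCTG, and no GC box. The Myof window held none of these motifs. Both windows of Dysf held GC boxes, 1 in the first and 3 in the second, and the second held 1 E-box. Over all 32851 windows, 72.3% held an E-box, 16.3% held CAGCTG, 35.7% held a GC box, and the median G and C content was 52.7%. A match is a description of the letters and no evidence of binding, and a window without one says only that these letters are not in it.

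Mymk encodes myomaker, the multipass membrane protein without which mouse myoblasts do not fuse. Its 1 probe set read 734 in shLrrfip1a against 787 in control, a difference of -0.10. Of all genes, 66.4% differed by at least as much in either direction. Its partner Mymx, which encodes myomixer and was singled out after its value was seen, read 1142 against 1280 (-0.16). Both fusogen genes thus read slightly lower in shLrrfip1a, by sizes near or under the median absolute difference of all genes (0.16). Of all genes, 49.3% were lower. The Mymk difference turned to 0.05 when the arrays were scaled to the spike-in controls.

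Jam2 and Jam3 encode the immunoglobulin-domain adhesion proteins JAM-B and JAM-C, which bind each other across cell contacts and are needed for fusion of fast muscle precursors in zebrafish. Each of the 5 Jam2 probe sets was lower in shLrrfip1a. In shLrrfip1a and control they read 209 against 258, 167 against 191, 102 against 125 and 57.2 against 86.4 on the 4 above the level filter. The dimmest read 37.3 against 53.7. The brightest probe set gave -0.28, and the 4 above the filter averaged -0.30 ± 0.13 (SD, n = 4 probe sets that share 1 RNA sample per group). The 5 probe sets were designed on 3 sequences, so they are not 5 separate readings. Of 489 genes with exactly 4 probe sets above the filter, all 4 were lower in 19.8%, so a gene lower throughout is common on these arrays.

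Jam3 differed the other way on the probe set above the filter, which read 119 in shLrrfip1a against 83.7 in control. The difference of 0.43 was the highest among the 10 genes, and 5.29% of all genes had a higher one. The other Jam3 probe set, designed on the same sequence, was dim and read 23.3 against 28.0 (-0.16), so the direction of Jam3 rests on 1 probe set. With a pseudocount of 64 the Jam3 difference was 0.31, and with spike-in scaling it was 0.58. Set against Jam2, Jam3 was higher by 0.72, and by 0.61 to 0.92 over the 4 pairs of probe sets above the filter. All 4 pairs use the same Jam3 probe set. The contrast of Jam3 with Jam2 does not depend on a constant scaling between the arrays. Their relative F11r, which encodes JAM-A, gave 0.06 on its brighter probe set (351 against 335) and -0.56 on the other (114 against 175). The 2 F11r probe sets thus disagreed in direction.

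Endothelium also expresses Jam2 and Jam3, and its markers were examined beside them. Pecam1 (33.6 against 31.1), Cdh5 (27.0 against 20.9) and Tek (17.5 against 15.1) were below the level filter. Kdr, the receptor of vascular endothelial growth factor, was the 1 of 4 markers above it, at 118 in shLrrfip1a against 48.0 in control (1.07). The control reading of Kdr lay below the level of 52.7, so Kdr passed the filter only through its shLrrfip1a reading. The summed intensity of the 4 was 197 in shLrrfip1a and 115 in control, of which Kdr gave 118 and 48.0. The part of other cells in the Jam2 and Jam3 values was not tested. In bulk RNA, fewer cells of a type and less RNA per cell cannot be told apart.

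Cdon and Boc encode related surface proteins with immunoglobulin and fibronectin repeats that associate with each other and with cadherins, promote myogenic differentiation, and serve as co-receptors for hedgehog ligands. Cdon was lower on both probe sets. The brighter one read 885 in shLrrfip1a against 1365 in control, or 64.8% of the control intensity, a difference of -0.62. Of all genes 2.26% had a lower difference. The second probe set, designed on another sequence, read 63.8 against 82.4 (-0.30). The mean over both was -0.46 ± 0.22 (SD, n = 2 probe sets that share 1 RNA sample per group). That mean is under 1.5-fold, as was the difference with spike-in scaling (-0.47). The size of the Cdon difference therefore rests on the brighter probe set, while its direction was the same on both.

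Boc was higher on both probe sets above the filter, at 152 in shLrrfip1a against 124 in control (0.26) and at 87.6 against 66.7 (0.32). The remaining probe set was near the floor of the arrays, at 4.31 against 5.35. Boc therefore differed in the opposite direction to Cdon, by 0.88, and by 0.56 to 0.94 over the 4 pairs of probe sets above the filter. The 3 Boc probe sets were designed on 1 sequence, so the 4 pairs are not separate readings. For the remaining genes with more than 1 probe set above the filter, Jam2 and Bin1, the probe sets also shared a sign, as they did in 60.3% of 4852 such genes. The plot of differences by probe set shows Cdon and Jam2 left of 0 and Boc and Dock1 right of it.

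**Figure D2:**
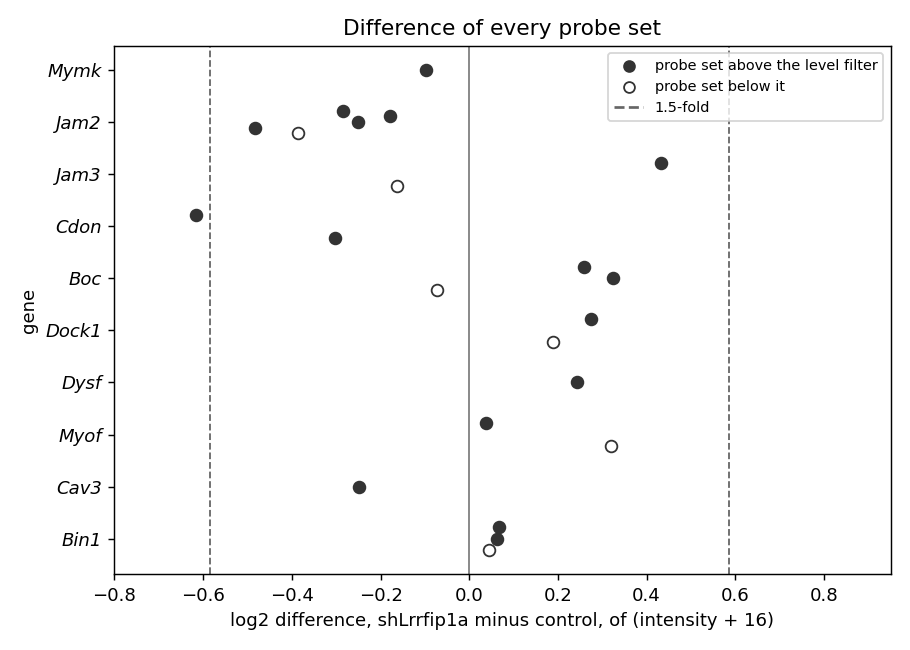
Difference of each of the 22 probe sets (x axis, log2 of intensity + 16, shLrrfip1a minus control) by gene, with filled points above and open points below the level filter. The dashed lines mark 1.5-fold, which 1 probe set, the brighter one of Cdon at -0.62, lies beyond.

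The list of 20 genes around the Cdon and Boc complex (hedgehog receptors and effectors, netrins, cadherins and kinases of the pathway) had 16 measured members. Of these, 2 were at least 1.5-fold higher and none at least 1.5-fold lower, with 11 higher and 5 lower by any size. The 2 genes are 12.5% of the 16, against 2.40% of all genes higher and 4.89% in either direction, but a share resting on 2 genes is not read as an excess. The median was 0.07, against 0.00 over all genes. The netrin Ntn4, a secreted basement membrane protein, read 359 in shLrrfip1a against 200 in control (0.79) and was higher on both probe sets. The dimmer Ntn4 probe set passed the level filter only through its shLrrfip1a reading. Ntn1, the ligand of neogenin, read 408 against 265 (0.59), just past 1.5-fold, on its 1 probe set above the filter. Its other probe set was dim, at 20.4 against 20.0 (0.02). With median centring or a pseudocount of 64, only 1 gene of the list was at least 1.5-fold higher. N-cadherin, Cdh2, to which Cdon binds within the same membrane, read 920 against 613 and lay just under 1.5-fold (0.57 and 0.56 on its 2 probe sets). Neo1, which encodes the netrin receptor neogenin and is related to Cdon, gave 0.07 (302 against 286).

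Other genes of this list were singled out after their values were seen, because they share the hedgehog function of Cdon and Boc. Gas1 encodes a further hedgehog co-receptor. It read 3242 in shLrrfip1a against 2350 in control (0.46), and 0.51 on its second probe set above the filter. Of the 3 co-receptor genes, Cdon was thus the lower one and Boc and Gas1 were the higher ones, with Gas1 above Cdon by 1.08 in difference (0.76 to 1.12 over 4 pairs of probe sets). The signal transducer Smo gave 0.39 (488 against 370). Ptch1, the hedgehog receptor and a target of the pathway, gave -0.18 (281 against 320) on its probe set above the filter. Its dimmer probe sets, below the level filter, went the other way, at 0.16 and 0.07. The target Gli1 was below the level filter on both arrays (29.1 against 27.1).

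Dock1 encodes a Rac exchange factor that acts with Elmo proteins and is needed for myoblast fusion in mice. Its probe set above the filter read 279 in shLrrfip1a against 228 in control, a difference of 0.27. The dim probe set, at 33.4 against 27.3, gave 0.19. Both were about 122% of the control intensity. Of all genes 12.9% had a higher difference. Among its relatives, Dock4 was higher (98.8 against 64.4, 0.51, and 0.32 on its second probe set above the filter). That second Dock4 probe set passed the filter only through its shLrrfip1a reading. Dock5, which also acts in muscle fusion in zebrafish, was lower (76.5 against 107, -0.41). Dock1 lay 0.68 above Dock5 in difference. Dock2, of blood cells, gave -0.07 (52.9 against 56.4), and Dock3 was below the filter (22.1 against 17.2).

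In the list of 29 genes of the Rac, Arf and actin machinery, 24 were measured. Of these 1 was at least 1.5-fold higher and none lower, and the median was 0.11. By any size 15 were higher and 9 lower, against 49.3% of all genes lower. The 1 gene is 4.17% of the 24, against 2.40% of all genes higher and 4.89% in either direction. The 1 was Wasf1, which encodes the Arp2/3 activator WAVE1 (261 in shLrrfip1a against 167 in control, 0.60). Elmo1, the partner of Dock1, came next (164 against 104, 0.58), although its 2 dimmer probe sets gave -0.05 and 0.15. Rac1 itself, singled out after its value was seen, read 952 against 916 (0.05).

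Dysf and Myof encode ferlins, large membrane proteins with repeated calcium-binding C2 domains. Dysferlin closes membrane tears in the mature fibre and is lost in a human limb girdle muscular dystrophy, and myoferlin is found in myoblasts about to fuse. Dysf read 108 in shLrrfip1a against 89.1 in control on its 1 probe set, a difference of 0.24. Of all genes 31.2% differed by at least as much in either direction. Myof read 624 against 608 (0.04), on a probe set whose suffix (_s_at) marks probes that can bind transcripts of more than 1 gene. Its other probe set was dim, at 26.6 against 18.1 (0.32). The Dysf difference exceeded that of Myof by 0.20. Median centring turned the Myof difference to -0.01. Of the other ferlins, Fer1l4 (54.4 against 43.3) and Otof (16.2 against 13.5) were below the level filter, and no probe set had Fer1l5 as its single symbol.

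Cav3 encodes the muscle caveolin, which forms caveolae of the fibre surface and binds dysferlin. It read 244 in shLrrfip1a against 293 in control, or 83.3%, a difference of -0.25. Cav3 and Dysf therefore differed in opposite directions, 0.49 apart, on 1 probe set each. The widely expressed caveolins were close to 0, with Cav1 at -0.01 (2543 against 2557) and Cav2 at -0.12 (664 against 722). Of 35 listed partners of dysferlin in membrane repair, 30 were measured. Of these 1 was at least 1.5-fold lower and none higher, and the median was -0.03, or 0.12 with spike-in scaling. By any size 18 were lower and 12 higher, against 49.3% of all genes lower. The 1 gene is 3.33% of the 30, against 2.49% of all genes lower and 4.89% in either direction.

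The 1 gene past 1.5-fold was Cavin2, which encodes a coat protein of caveolae. It read 550 in shLrrfip1a against 961 in control (-0.79) and was lower on all 3 probe sets, with differences of -0.79 to -0.71. Cavin3, another coat protein, read 461 against 318 (0.51), while the muscle cavin Cavin4 gave -0.08 (751 against 794) and Cavin1 0.18 (1237 against 1087), both singled out after their values were seen. The cavins thus differed in both directions. Syt7, a calcium sensor of lysosome exocytosis, gave 0.45 on its brighter probe set (98.6 against 68.2) and -0.04 on the second. Trim72, which encodes the repair protein MG53, was below the level filter (21.0 against 25.0).

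Bin1 encodes amphiphysin 2, a BAR-domain protein that bends membrane into T-tubules. Its 3 probe sets read 749 in shLrrfip1a against 713 in control, 143 against 137 and 37.0 against 35.4. All 3 were about 105% of the control intensity, with differences of 0.07, 0.06 and 0.05. This was the closest agreement between probe sets among the members, compared with a median range of 0.18 between the probe sets of 1 gene over the 4852 genes with several above the filter. The BAR protein gene Bin3 gave -0.30 (288 against 357), Amph was near the floor (4.04 against 7.49), and no probe set had Bin2 as its single symbol.

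The 21 listed genes of membrane curvature and T-tubules had 18 measured members, none past 1.5-fold, against 4.89% of all genes. Of the 18, 9 were lower and 9 higher, with a median of 0.00. The largest difference was that of Dnajb1, a heat shock co-chaperone and not a curvature protein (1148 in shLrrfip1a against 788 in control, 0.53, and 0.11 on its second probe set). Ehd3, of endocytic recycling, gave 0.39 (256 against 191). Mtss1, which binds and bends membrane through a BAR-type domain, gave 0.31 (1772 against 1425) and was higher on all 6 of its probe sets.

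The 23 other surface proteins of fusion had 17 measured members with a median of -0.06, 9 lower and 8 higher, although that median was 0.09 with no filter and with spike-in scaling. The 1 past 1.5-fold, Cdh11, which encodes the mesenchymal cadherin-11, read 196 in shLrrfip1a against 719 in control, a difference of -1.79, and 33.5 against 133 on its second probe set (-1.59). It was also the 1 gene past 2-fold in the 5 lists, against 1.38% of all genes. The 1 gene past 1.5-fold is 5.88% of the 17, against 4.89% of all genes. Adam12, a membrane metalloprotease of fusing myoblasts, read 250 against 382 and lay just under 1.5-fold (-0.58, and -0.19 on its second probe set). Kirrel3, a nephrin-like adhesion protein, read 65.4 against 43.0 (0.46) on the 1 of its 3 probe sets above the level filter. The control reading of Kirrel3 lay below that level, so this probe set passed only through its shLrrfip1a reading. Over the 5 lists together, 105 of 128 genes were measured, and 3 were at least 1.5-fold higher and 2 lower, or 4.76%, against 4.89% of all genes. That share is at the background. The plot of lists shows the few genes outside the dashed lines.

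**Figure D3:**
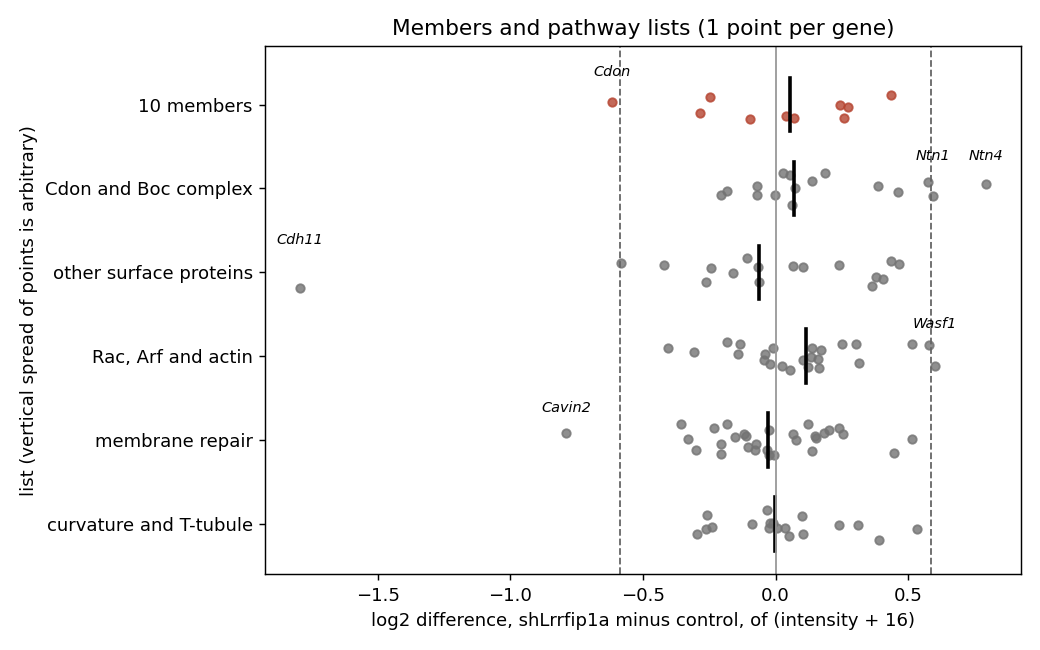
Difference of each measured gene (x axis, log2 of intensity + 16, shLrrfip1a minus control) for the 10 members in red and the 5 pathway lists in grey, 1 point per gene, with a black bar at the median of each. Genes beyond the dashed 1.5-fold lines are named: Cdon at -0.62, Ntn4 at 0.79, Ntn1 at 0.59, Cdh11 at -1.79, Wasf1 at 0.60 and Cavin2 at -0.79.

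Placed among all measured genes, 9 of the 10 members lay inside the range of differences from -0.58 to 0.58 that holds the central 95% of genes, and Cdon lay outside it. Mymk, Myof and Bin1 lay between the quartiles of all genes (-0.15 and 0.16). Jam2, Cav3, Jam3, Boc, Dock1 and Dysf lay between the quartiles and the ends of that range.

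**Figure D4:**
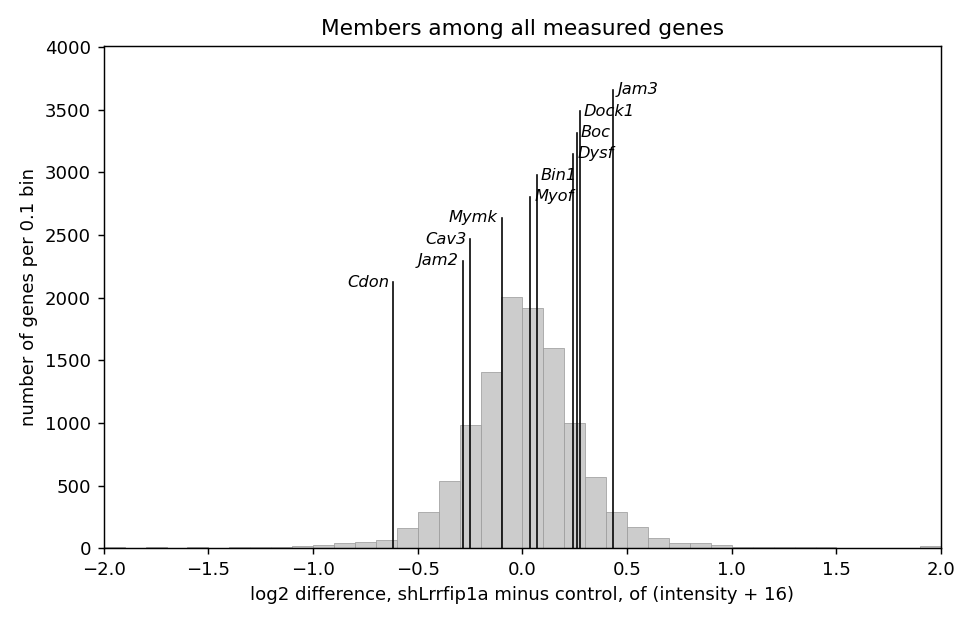
Number of genes (y axis) per bin of 0.1 in difference (x axis, log2 of intensity + 16, shLrrfip1a minus control) for all 11445 measured genes, with a vertical line for each of the 10 members. Genes beyond 2 in either direction are counted in the outermost bins. Cdon at -0.62 and Jam3 at 0.43 lie farthest from the centre among the members.

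Markers of earlier and of other cells were examined beside these genes. Pax7, of satellite cells, lay below the level filter and read 22.6 in shLrrfip1a against 70.4 in control (-1.16), and Myf5, of early myoblasts, read 82.8 against 159 (-0.83). The 2 summed to 105 in shLrrfip1a and 230 in control. Cdon is also expressed in undifferentiated myoblasts, and the part of such cells in its value was not tested. Of 5 fibroblast markers, all measured, Dcn was higher (3.67), the other 4 ranged from -0.42 to 0.11, and the sum was 12585 in shLrrfip1a and 10034 in control. Without Dcn the sum ran the other way, at 9088 in shLrrfip1a and 9773 in control. Of 4 markers of macrophages and other blood cells 2 were above the filter, none past 1.5-fold (241 in shLrrfip1a and 236 in control, summed). Both adipocyte markers read were below the filter (31.8 in shLrrfip1a and 39.7 in control, summed). The floor of the arrays is 1, so no marker could be listed at 0.

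The members kept nearly the same differences under most other settings of the processing, as the plot by setting shows. Cdon ranged from -0.66 to -0.46 and Jam2 from -0.33 to -0.13. Jam3 ranged from 0.31 to 0.58, Boc from 0.20 to 0.41, Dock1 from 0.23 to 0.42 and Dysf from 0.17 to 0.39. Cav3 ranged from -0.29 to -0.10 and Bin1 from 0.02 to 0.22.

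**Figure D5:**
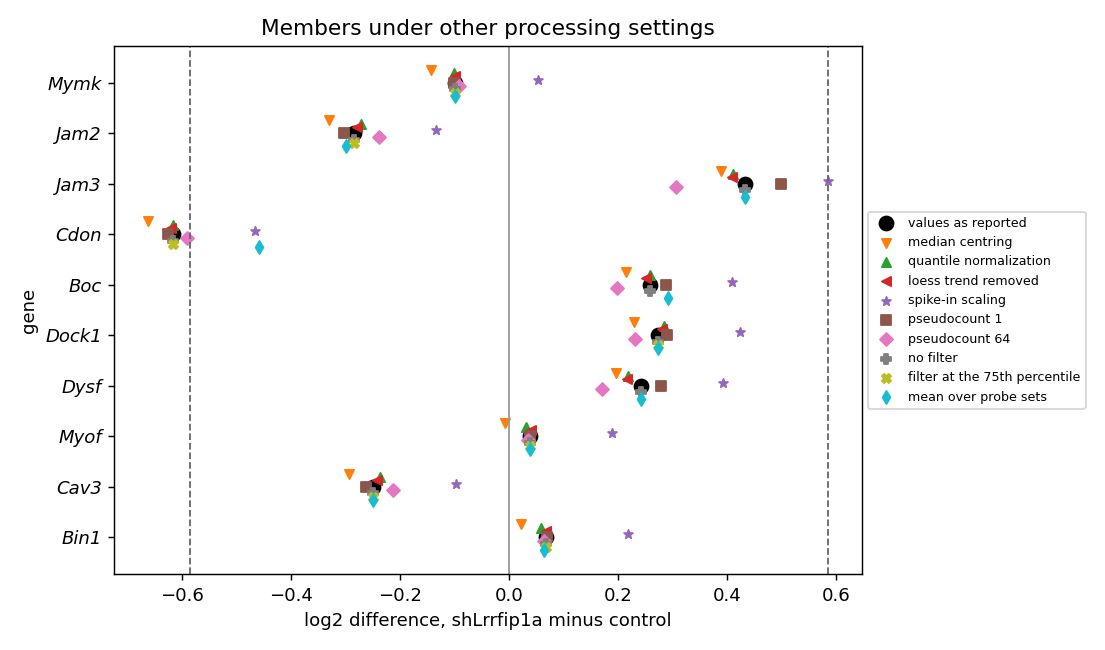
Difference of each of the 10 genes (x axis, log2 scale, shLrrfip1a minus control) as reported (black circles) and under 9 other processing settings, with dashed lines at 1.5-fold. Spike-in scaling (stars) moves every gene to the right by 0.15. Mymk and Myof, which lie nearest to 0 with Bin1, change sign under 1 setting each.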

How the data were processed

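The deposited values are linear intensities of 1 array per group, with a floor of 1. How the authors summarised, corrected, scaled or called the probe sets is not stated in the labels, and having 1 array per group limits the precision. Differences were computed with Python 3.11.15, numpy 2.4.6 and pandas 2.3.3 as log2(intensity + 16), which understates changes of dim genes, on the deposited scaling. A 1.5-fold difference is 0.58 on this scale and is a size, not a test. Genes were named from probe sets with 1 symbol in the platform annotation. The alternatives were 4 scalings (spike-in scaling used 45 bacterial and phage control probe sets), pseudocounts of 1 and 64, no filter, a filter at the 75th percentile, and the mean over probe sets. In the 5 pathway lists, every measured gene past 1.5-fold was named, or the 3 of largest difference where fewer than 3 passed, along with 14 paralogs of the members. The members and lists were chosen with earlier results of these data known. The procedure was run on simulated data with known differences, where only the sign of the median estimate was checked. That check does not measure how reliable a difference from 1 array per group is.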

Additional observations from a re-analysis of the deposited data

How the results depend on the processing

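With 1 array per group no replicate could be left out, and each arm holds a single array. No paired analysis was possible because the arms have no second pair. Movement was judged against the robust SD of the differences over all genes, 0.23. The whole table held 275 higher and 285 lower genes past 1.5-fold (4.89%). Spike-in scaling shifted the median of all genes to 0.16 and made this 605 and 187 (6.92%). It gave Cdon -0.47, and so left 0 members at least 1.5-fold lower, and the higher genes came to 4 in the Cdon and Boc complex list, 3 in the Rac, Arf and actin list, 2 each among other surface proteins and membrane repair, and 1 in the curvature list. It adds a constant, so the order of the members was unchanged. With the mean over probe sets Cdon gave -0.46 and 0 members passed. Median centring (230 higher and 347 lower over all genes, 5.04%) left 1 higher gene in the Cdon and Boc complex list and 0 in the Rac list, and gave 2 lower among other surface proteins. A pseudocount of 1 (372 and 354 over all genes, 6.34%) gave 2 lower and 1 higher among other surface proteins and 3 higher in the Rac list, and 64 (164 and 189, 3.08%) gave 1 higher in the Cdon and Boc complex list and 0 in the Rac list. The filter at the 75th percentile left 5 lower and 3 higher member probe sets, against 8 and 8, and left out Dysf, Jam3 and Boc. The list counts are to be read against these shares over all genes. The median over members turned to -0.10 with the 75th percentile filter, and was 0.20 with spike-in scaling and 0.01 with median centring. The median of other surface proteins turned to 0.09 with no filter and with spike-in scaling, which also turned that of membrane repair to 0.12 and that of the curvature list to 0.15. The curvature median was also 0.00 with the opposite sign under loess scaling and the 75th percentile filter. Apart from Mymk under spike-in scaling (0.05) and Myof under median centring (-0.01), every member's difference had the same sign in all settings that measured it. Low signal limits Jam3, Dysf and Boc most, since their brightest probe sets lie below the 75th percentile.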
